A study of Mus musculus with 4 samples.

Results

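The transcripts described here encode the voltage-gated sodium channels, voltage-gated calcium channels, chloride channels and transporters of the Clcn family, HCN pacemaker channels, ryanodine and inositol trisphosphate receptors, and TRP channels. Members were all probe sets paired with a single gene symbol that starts with Scn, Cacn, Clcn, Hcn, Ryr, Itpr, Trpc, Trpm or Trpv. On this array several short probes, together a probe set, read each transcript. The rule found 55 probe sets for 39 genes, of 10833 probe sets and 8251 genes with a single symbol on the array. It also takes in Scnm1, an RNA splicing factor named for its effect on a sodium channel, Trpc4ap, a protein that binds a TRP channel, and Scn7a, a sodium-sensing relative of the voltage-gated channels. These were kept apart from the channel families. The array held no member among the sodium channel beta subunits or the epithelial sodium channel.

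The RNA was extracted from left hippocampi of males at 12 months of age. There were 2 arrays of APPSw mice, the Tg2576 line, which overexpress amyloid precursor protein carrying the Swedish mutation, and 2 arrays of nontransgenic control mice of the C57B6/SJL background. In this line a hamster prion protein gene vector drives a human coding sequence. The labels describe each array as the RNA of a mouse and do not say whether the mice were littermates, so a p-value covers only the spread seen among these 4 arrays, part of which may be technical.

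Voltage-gated sodium channels carry the rising phase of the action potential, and voltage-gated calcium channels turn that voltage change into calcium entry that triggers transmitter release and gene regulation. Ryanodine and inositol trisphosphate receptors release calcium from the endoplasmic reticulum. HCN channels open on hyperpolarization and set the resting excitability of hippocampal pyramidal dendrites, while Clcn proteins and TRP channels move chloride and cations across the plasma membrane and the membranes of endosomes and lysosomes.

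Median signals over all probe sets were 1031 and 1011 on the APPSw arrays and 924 and 985 on the control arrays. Markers of the choroid plexus, tissue that lies beside the hippocampus, had a summed signal of 135900 in APPSw 1 and 17100 in APPSw 2, against 23750 and 14120 in the controls. Most of the APPSw 1 sum came from Ttr, with 83384 there, and Igf2, with 30368. Cldn2, a dim gene of the list, had 162 and 112 in APPSw mice against 159 and 173 in controls. Of the marker list for hippocampal principal neurons, 9 of 11 genes were tested and 8 of the 9 lay below 0 (7 after quantile normalization), with a median log2 difference of -0.53, while all 5 tested genes of the neocortex list lay above 0, with a median of 0.34. All 7 tested oligodendrocyte genes lay below 0, with a median of -0.28, also after quantile normalization. So did all 6 tested cerebellum genes, with a median of -0.12, also after quantile normalization. The other cerebellum genes on the array, Pcp4, Car8 and Gabra6, were too dim to be tested. They went the other way, with a higher mean log2 signal in APPSw mice. Some genes of the principal neuron and neocortex lists were chosen because earlier results of these data named them, so their counts are not independent support. With limma 0 genes of these lists passed the adjusted threshold. At an unadjusted p under 0.05 there were 0 of choroid plexus, 4 of principal neurons, 2 of neocortex, 0 of oligodendrocytes and 1 of cerebellum. Further lists were mixed as deposited. Striatum and thalamus had 2 tested genes above 0 and 4 below, and astrocytes 3 and 3, with 0 in each at such a p. Microglia had 4 above and 2 below, and endothelium and mural cells 3 and 4, with 1 in each at such a p. Over all tested probe sets 8.05% had such a p, 47.3% lay below 0 and 52.7% above. Wfs1, a marker of pyramidal neurons of the hippocampal CA fields, had signals of 8015.9 and 8249.8 in APPSw mice and 7201 and 9233 in controls. Its log2 difference was -0.0039, where the median of its list was -0.53. Prox1, a marker of dentate granule cells, was dim on every array, with 576 and 258 in APPSw mice and 679 and 553 in controls. It lay under the filter described below, and neither gene verifies the labelled tissue. In tissue RNA, fewer cells of a type and less RNA per cell cannot be told apart, and the part of these marker shifts in the channel values was not tested.

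Of the 55 probe sets, 36, for 28 genes, had a mean log2 signal at or above the 40th percentile of the array, which corresponds to a geometric mean signal of 565, and were tested. The other 19 lay under it. The filter used the mean over all arrays, regardless of group. No channel probe set passed limma's test with Benjamini-Hochberg adjustment over 7453 tested probe sets, and the share called over all of them was also 0.0%. At an unadjusted p under 0.05 there were 3 of 36 channel probe sets, or 8.33%, beside 8.05% of all tested probe sets, so the channels stood at the background. Those 3 were Clcn4 and Clcn3, each by 1 of its probe sets, which were lower in APPSw mice (background 3.33%), and Trpm1, which was higher (background 4.72%). Without control 2 the count was 0 (background 5.39%).

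The APPSw arrays were both above or both below the pair of controls for 16 of 36 channel probe sets, or 44.4%, against a background of 41.2%. They lay above the controls for 7 (background 22.2%) and below for 9 (background 19.0%). For 0 of 36 was each APPSw array at least 1.5-fold from each control array, where 1.22% of all tested probe sets met that rule. The log2 difference, APPSw minus control, was below 0 for 23 of the 36 and above 0 for 13, where 47.3% of all tested probe sets lay below 0 and 52.7% above. Its median was -0.056 over the channels and 0.018 over all tested probe sets.

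The differences among channels were small beside their errors. Of 36, 32 lay within 0.5 of 0 on the log2 scale, or 88.9%, as did 88.4% of all tested probe sets. They ranged from -0.66 to 0.60. The SE of a difference had a median of 0.20 and a range of 0.17 to 0.39, and a 95% confidence interval reached a median of 0.51 to either side. With 2 arrays in each group, a typical interval therefore reached 1.42-fold to either side of the estimate, and a p that missed the threshold does not show equal levels. The size of the difference between the APPSw arrays had a median of 0.28 over the channel probe sets, and that between the control arrays a median of 0.18 (0.24 and 0.19 over all tested probe sets).

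**Figure D1:**
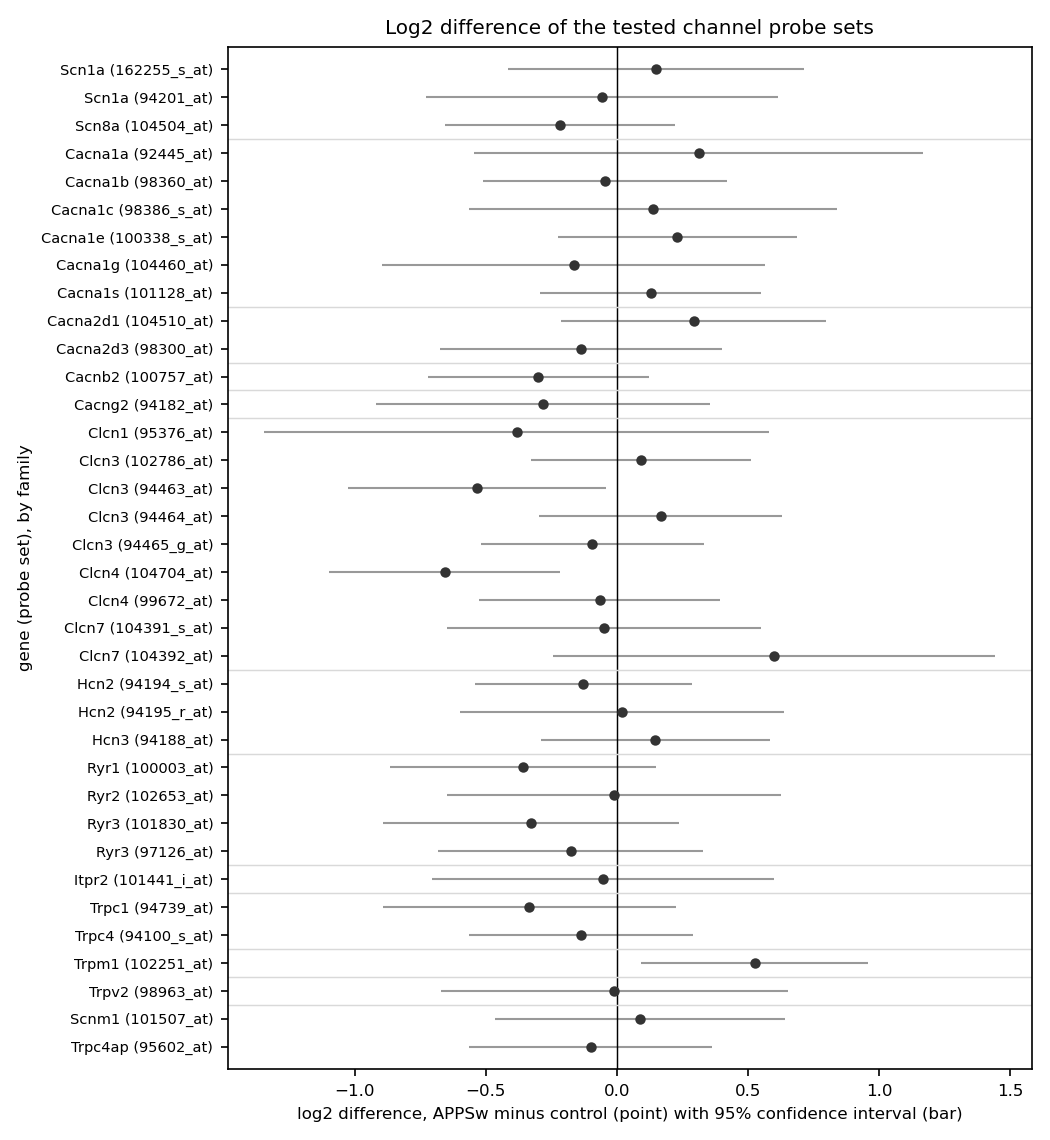
Log2 difference, APPSw minus control, for each of the 36 tested channel probe sets, ordered by family, with limma's 95% confidence interval as a bar (2 arrays in each group). The intervals of 3 probe sets, 1 each of Clcn3, Clcn4 and Trpm1, do not include 0, and none of the 3 passed the adjusted threshold. These are 8.33% of the channel probe sets, beside 8.05% of all tested probe sets with an unadjusted limma p under 0.05.

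**Figure D2:**
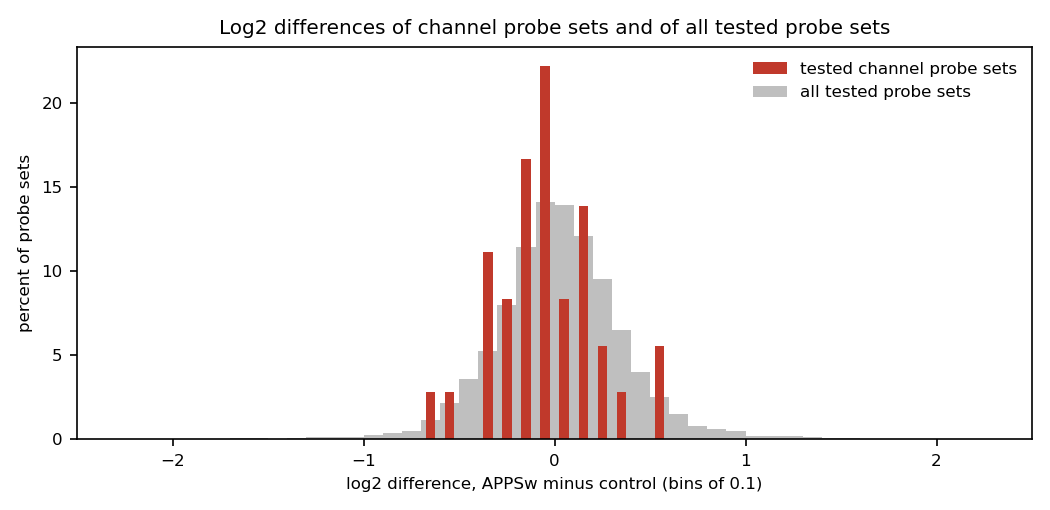
Share of probe sets in bins of 0.1 of the log2 difference, APPSw minus control, for the 36 tested channel probe sets (narrow bars) and all 7453 tested probe sets (wide bars). Both distributions centre near 0, with medians of -0.056 and 0.018, and no channel lies beyond -0.66 or 0.60.

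The promoters of the genes that hold the 3 lowest unadjusted p-values are shown as the regulatory sequence nearest to the members described below in most detail, and nothing in the arrays bears on how they act. Each is the 250 bases before the most upstream RefSeq start in GRCm38.p6, and capitals mark each CG dinucleotide, the site of DNA methylation in mammals. They lie at chr7:7299558-7299807 on the minus strand for Clcn4, at chr7:64153585-64153834 on the plus strand for Trpm1 and at chr8:60983312-60983561 on the minus strand for Clcn3.
Clcn4: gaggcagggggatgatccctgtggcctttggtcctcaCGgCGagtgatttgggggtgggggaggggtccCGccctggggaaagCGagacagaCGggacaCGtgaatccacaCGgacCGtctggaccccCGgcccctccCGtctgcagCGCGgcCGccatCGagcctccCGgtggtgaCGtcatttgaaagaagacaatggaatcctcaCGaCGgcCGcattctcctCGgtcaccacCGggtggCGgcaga
Trpm1: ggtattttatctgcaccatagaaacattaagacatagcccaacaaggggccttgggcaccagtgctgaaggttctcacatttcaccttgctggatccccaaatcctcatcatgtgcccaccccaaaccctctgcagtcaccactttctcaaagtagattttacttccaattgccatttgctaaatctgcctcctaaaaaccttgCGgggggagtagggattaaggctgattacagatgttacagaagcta
Clcn3: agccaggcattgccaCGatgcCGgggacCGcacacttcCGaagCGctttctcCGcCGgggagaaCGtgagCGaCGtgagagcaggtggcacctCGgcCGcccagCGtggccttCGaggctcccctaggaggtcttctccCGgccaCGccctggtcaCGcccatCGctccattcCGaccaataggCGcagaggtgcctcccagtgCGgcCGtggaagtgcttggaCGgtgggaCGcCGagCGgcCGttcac
The Clcn4 window held 22 CG dinucleotides, and 14.8% of all promoters listed held at least as many. The Clcn3 window held 27, a count reached by 8.56% of promoters. A single CG lay in the Trpm1 window, and 92.1% of promoters held at least 1. Each of the 3 genes has 2 starts in that table, with 8 CG dinucleotides before the other start of Clcn4, 4 before that of Trpm1 and 7 before that of Clcn3, and the arrays do not say which start was used.

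Among the 31 of 39 genes with a promoter in the RefSeq table, the CG count is given by whether the gene was measured above the filter. The median count in 250 bases was 14.0 over 23 genes with a tested probe set and 9.5 over 8 genes without one. Over all genes on the array these medians were 16 and 7. At least 10 CG dinucleotides were present in 15 of the 23 tested channel genes, or 65.2%, and in 4 of the 8 others. Among all genes on the array the share was 76.0% of those with a tested probe set and 43.4% of those without one. The channel share was therefore lower than that of the array among tested genes and higher among the few others. Over the 31 it was 61.3%. The 38.2% of all 27025 genes is no background for it, since that set includes genes not on the array. Counts ran from 1 in Trpm1 to 36 in Cacna2d1. These counts describe the letters of each window only.

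Sodium channel alpha subunits form the pore and sense voltage. Of 5 genes, Scn1a and Scn8a were measured above the filter. Scn8a, the main sodium channel of the axon initial segment and nodes of Ranvier, had signals of 5132 and 5820.0 in APPSw mice, against 6604 and 6119 in controls. Both APPSw arrays were lower than both controls, with a log2 difference of -0.22 (SE 0.18, adjusted p = 0.734). A further Scn8a probe set, 104505_at, was among the dimmest members, at 18.4 and 18.7 in APPSw mice and 48.4 and 76.0 in controls, and was not tested.

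Scn1a, prominent in fast-spiking interneurons, was read by a pair of tested probe sets. By 162255_s_at the signals were 6529 and 9262 in APPSw mice and 7395 and 6643 in controls, a log2 difference of 0.15 (SE 0.23, adjusted p = 0.864). By 94201_at they were 1706 and 2820 in APPSw mice and 2277 and 2290 in controls, a difference of -0.058 (SE 0.27, adjusted p = 0.963). In both, APPSw 1 was the lowest array and APPSw 2 the highest, so the controls fell between the APPSw arrays. The interneuron list, with Gad1, Sst, Pvalb and others, had 4 of its 8 tested genes above 0 and 4 below, with a median log2 difference of 0.0035, which was -0.015 after quantile normalization.

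The calcium channel alpha1 subunits, which form the pore and give each channel type its name, had 6 of 7 genes above the filter, 4 with a difference above 0 and 2 below, and a median log2 difference of 0.13 that was 0.066 after quantile normalization. Cacna1b, of the N-type channel of presynaptic terminals, had 3046 and 3667 in APPSw mice and 3620 and 3296 in controls, a log2 difference of -0.047 (SE 0.19, adjusted p = 0.953). Cacna1e, of the R-type channel, had 623 and 703 in APPSw mice against 607 and 524 in controls. Its difference of 0.23 (SE 0.18, adjusted p = 0.728) had the lowest p of the family and no overlap between the groups. The dimmer Cacna1e probe set overlapped, with 476 and 422 in APPSw mice and 268 and 595 in controls.

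The other pore subunits also missed the threshold. Cacna1a, of the P/Q-type channel, differed by 0.31 (SE 0.35, adjusted p = 0.803), and its interval was the widest of the family, from -0.55 to 1.17. Its signals overlapped, at 944 and 1343 in APPSw mice and 666 and 1235 in controls. Cacna1c, an L-type subunit, differed by 0.14 (SE 0.28), with the higher and the lower extreme both in APPSw mice, at 4262 and 2494, around controls of 3048 and 2885. The difference was -0.17 (SE 0.30) for Cacna1g, a low-voltage-activated T-type subunit.

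The auxiliary calcium channel subunits set surface delivery and gating of the pore. Cacnb2, a cytoplasmic beta subunit, had 4518 and 4911 in APPSw mice against 5927 and 5674 in controls. Its groups did not overlap, and the log2 difference was -0.30 (SE 0.17, adjusted p = 0.637). Cacna2d1, the alpha2delta subunit bound by gabapentin, had 2426 and 2541 in APPSw mice against 1768 and 2324 in controls, also without overlap, a difference of 0.29 (SE 0.20, adjusted p = 0.691) that was 0.095 without control 1. Cacna2d3, of the same subunit class, had 5527 and 7199 in APPSw mice and 7656 and 6294 in controls, with overlap and a difference of -0.14 (SE 0.22). For Cacng2, stargazin, which escorts AMPA-type glutamate receptors to the synapse, only APPSw 1 stood apart, with 1759 there and 2784 in APPSw 2, against 2668 and 2712 in controls. The Cacng2 difference of -0.28 (SE 0.26, adjusted p = 0.763) was 0.05 without APPSw 1.

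**Figure D3:**
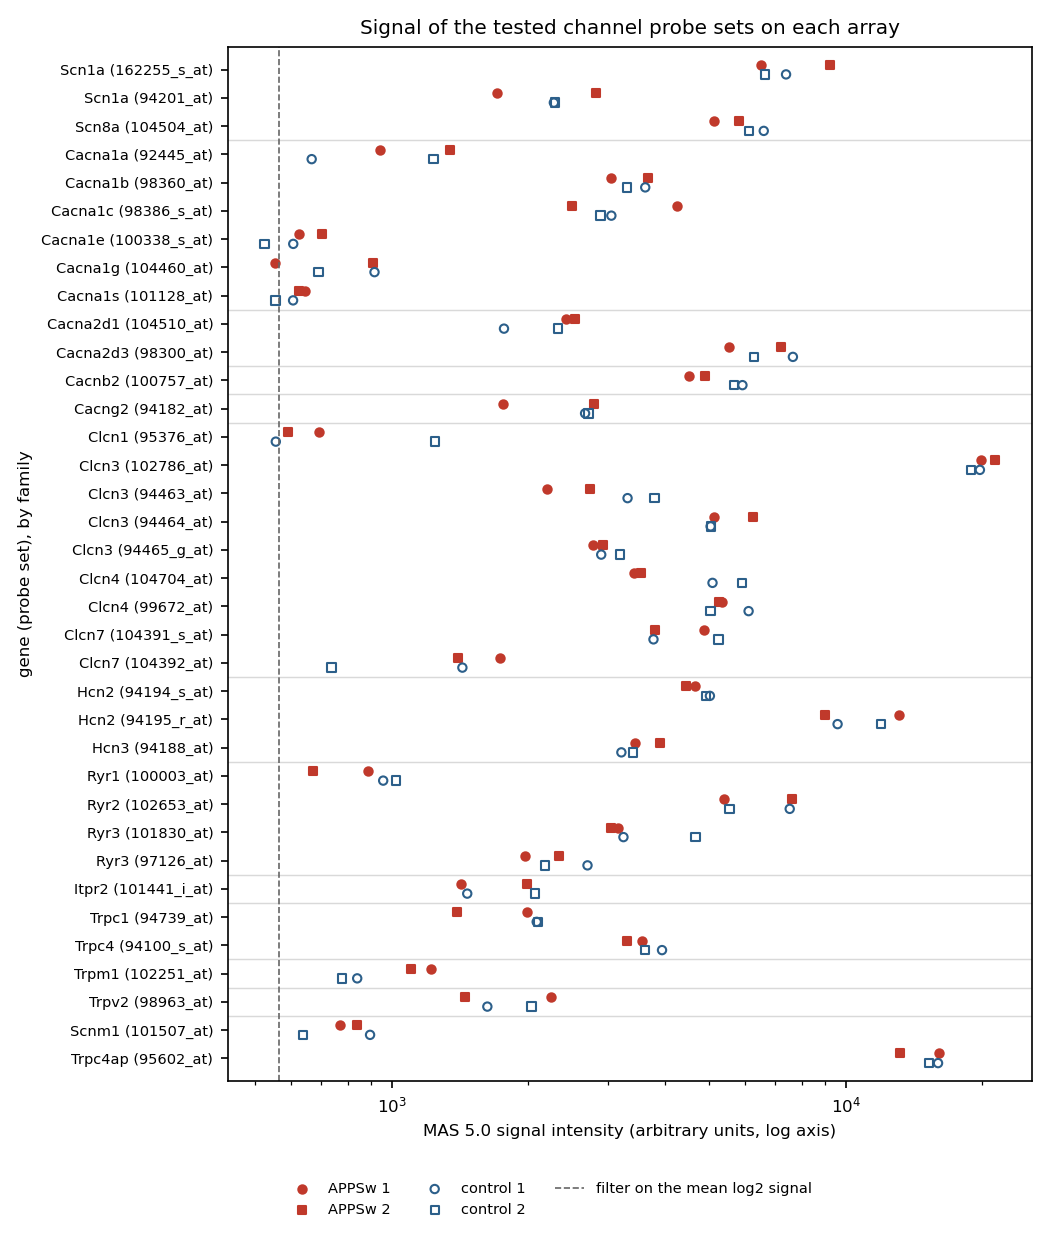
MAS 5.0 signal intensity on a log axis for each of the 36 tested channel probe sets, with filled symbols for the APPSw arrays and open symbols for the control arrays, and grey lines between families. The groups do not overlap for 16 of the 36, or 44.4%, beside 41.2% of all tested probe sets. The APPSw arrays are above for 7 (background 22.2%) and below for 9 (background 19.0%). Levels of different probe sets are not comparable, since probe sets bind with different strength.

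Of the chloride family, 9 of 13 probe sets, for 4 of 6 genes, were tested. Probe sets of the same gene often differed here in the size or sign of the log2 difference. Clcn4, an endosomal chloride-proton exchanger, had 3417 and 3545 in APPSw mice against 5092 and 5918 in controls by probe set 104704_at. The groups did not overlap, with a log2 difference of -0.66 (SE 0.18, unadjusted p = 0.0112, adjusted p = 0.599), the lowest p among the channels. By 99672_at the same gene had 5339 and 5270.4 in APPSw mice and 6115 and 5045 in controls, a difference of -0.066 (SE 0.19, adjusted p = 0.931) with both APPSw arrays between the controls.

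Clcn3, an exchanger of endosomes and synaptic vesicles, was read by 4 tested probe sets. By 94463_at it had 2194 and 2730.1 in APPSw mice against 3309 and 3796 in controls, a log2 difference of -0.53 (SE 0.20, unadjusted p = 0.0381, adjusted p = 0.610). By 102786_at the signals were 19900 and 21397 in APPSw mice and 19773 and 18919 in controls. That is a difference of 0.09 (SE 0.17), with the APPSw arrays above the controls. By 94464_at they were 5127 and 6266 in APPSw mice and 5043 and 5058 in controls, a difference of 0.17 (SE 0.19), again with the APPSw arrays above. By 94465_g_at the groups overlapped, at 2775 and 2917 in APPSw mice and 2895 and 3186 in controls, a difference of -0.09 (SE 0.17). The Clcn3 probe sets therefore did not share a sign and lay up to 0.70 apart in log2 difference. All but 94463_at lay less than their SE from 0.

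Clcn7, the chloride-proton exchanger of lysosomes, also split. By 104392_at it had 1730 and 1398 in APPSw mice and 1431 and 737 in controls, a log2 difference of 0.60 (SE 0.34, adjusted p = 0.637), in which control 2 alone was low. Without control 2 the value was 0.12. By 104391_s_at the signals were 4871 and 3806 in APPSw mice and 3774 and 5251 in controls, a difference of -0.048 (SE 0.24), and control 2 was the highest array.

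**Figure D4:**
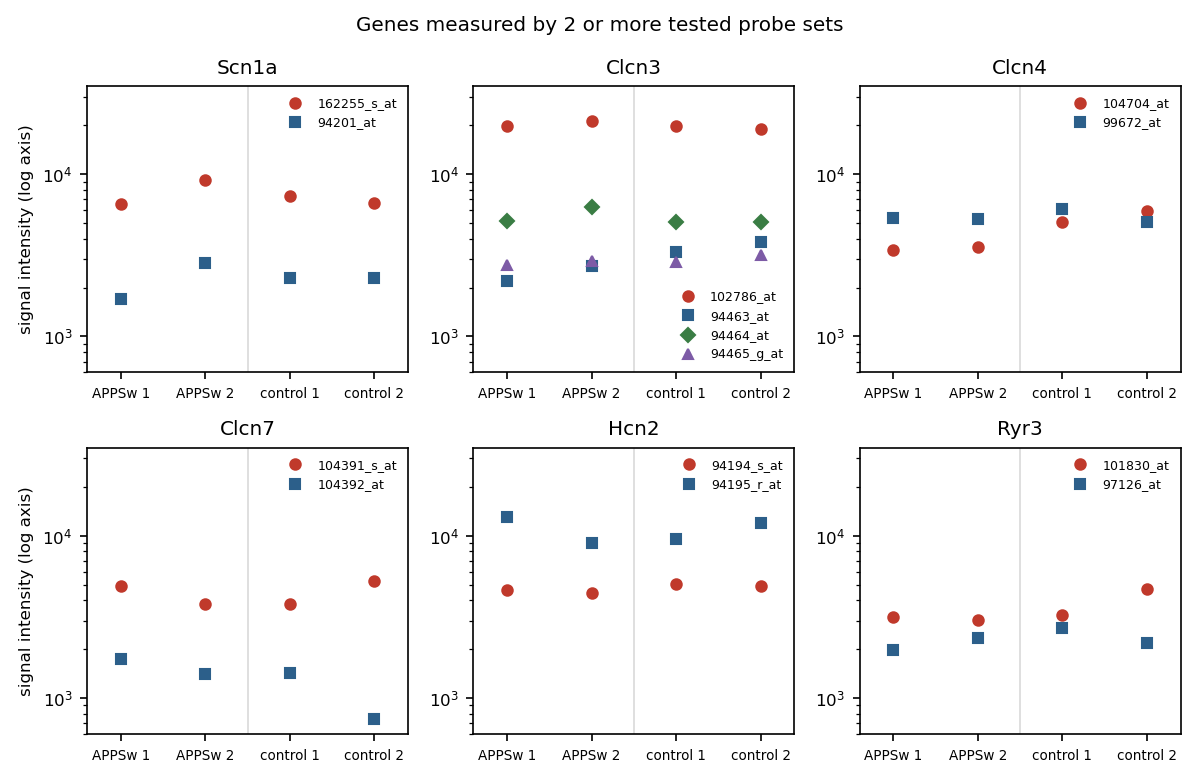
Signal intensity (log axis) on each array for the 6 genes with 2 or more tested probe sets, 1 symbol for each probe set. For Scn1a, Clcn3, Clcn7 and Hcn2 the probe sets of a gene differ in the sign of the log2 difference, and for Clcn4 and Ryr3 they share it.

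Over the 6 genes with more than 1 tested probe set, 4 had log2 differences of both signs and 2 had a single sign. In each of the 4, at least 1 value was smaller than its SE. The matching share over all genes on the array was not computed, so the count is a description only. Of the 55 member probe sets, 13 carry a suffix by which the manufacturer marks probes that may match other transcripts or that broke a design rule, and 9 of these were tested. Leaving them out gave a median log2 difference of -0.066 over 27 probe sets.

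HCN channels were measured by 3 tested probe sets. Hcn2, an HCN subunit of pyramidal neurons and thalamus, had 4657 and 4446 in APPSw mice against 5025 and 4924 in controls by 94194_s_at, without overlap, a log2 difference of -0.13 (SE 0.17, adjusted p = 0.836). By 94195_r_at it had 13116 and 9009 in APPSw mice and 9604 and 11989 in controls, a difference of 0.019 (SE 0.25) with both extremes in APPSw mice. Hcn3, a further HCN subunit, had 3434 and 3894 in APPSw mice against 3207 and 3404 in controls, a difference of 0.15 (SE 0.18, adjusted p = 0.823).

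All 4 tested probe sets of the ryanodine receptors had a log2 difference below 0 as deposited (background 47.3%). After quantile normalization 3 of the 4 did (background 49.7%). The median as deposited was -0.25, and none passed the test. Ryr2, known as the cardiac form and abundant in brain, had 5401 and 7613 in APPSw mice and 7534 and 5548 in controls. Its values were interleaved, and the difference of -0.012 (SE 0.26, adjusted p = 0.996) was 0.024 after quantile normalization. Ryr3, found in hippocampal area CA1, had 3149 and 3041 in APPSw mice against 3241 and 4667 in controls by 101830_at, a difference of -0.33 (SE 0.23, adjusted p = 0.689) in which control 2 was high and which was -0.067 without it. The other Ryr3 probe set, 97126_at, had 1963 and 2342 in APPSw mice and 2700.3 and 2174 in controls, with overlap and a difference of -0.18 (SE 0.20). Ryr1, the skeletal muscle form, had 885 and 672 in APPSw mice against 958 and 1021 in controls, without overlap, a difference of -0.36 (SE 0.20, adjusted p = 0.638).

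Of the inositol trisphosphate receptors only Itpr2, a form found in astrocytes, was a member, with 4 probe sets of which 1 was tested. That probe set, 101441_i_at, had 1419 and 1983 in APPSw mice and 1467 and 2067 in controls. Its number 2 array was the higher in both groups, and the log2 difference was -0.054 (SE 0.26, adjusted p = 0.965). The 3 dim Itpr2 probe sets ran between 44.6 and 449 over the arrays.

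Members best known from skeletal muscle were read together with muscle genes. Cacna1s, the voltage sensor of muscle contraction, had 644 and 625 in APPSw mice against 606 and 555 in controls, a log2 difference of 0.13 (SE 0.17). Clcn1, the chloride channel of muscle, had 690.2 and 590.4 in APPSw mice and 555 and 1246 in controls. The Clcn1 difference of -0.38 (SE 0.39, adjusted p = 0.786) was 0.20 without control 2. A dimmer Clcn1 probe set, 102622_r_at, overlapped, with 250.5 and 59.3 in APPSw mice and 76.0 and 258.4 in controls. Cacng1, the gamma subunit of the muscle calcium channel, was dim, at 137 and 148 in APPSw mice and 316 and 139 in controls. Of the muscle marker list, 4 of 8 genes were tested and all 4 lay above 0, with a median log2 difference of 0.47. With limma 2 had an unadjusted p under 0.05. Over all tested probe sets 52.7% lay above 0 and 8.05% had such a p. The rest of the list lay under the filter and was mixed. Mean log2 signal was lower in APPSw mice for Mb, myoglobin, and Tnnt3, a muscle troponin, and higher for Myh6 and Tnnt2. Ryr1, above, lay below 0. The list's summed signal was 5873 and 6371 in APPSw mice against 4205 and 4770 in controls, where Mb and Tnnt3 ran from 38.4 to 446 over the arrays. The part of that list in the values of these members was not tested.

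Among TRP channels, Trpm1, known from melanocytes and retinal bipolar cells, had 1222 and 1105 in APPSw mice against 839 and 777 in controls. The groups did not overlap, with a log2 difference of 0.52 (SE 0.17, unadjusted p = 0.0251, adjusted p = 0.599), which stayed between 0.45 and 0.60 when each array was left out in turn. Trpc1, a subunit of receptor-operated cation channels, had 1988 and 1389 in APPSw mice against 2087 and 2102 in controls, without overlap. The Trpc1 difference of -0.33 (SE 0.23, adjusted p = 0.682) was -0.08 without APPSw 2. A dimmer Trpc1 probe set, 94740_g_at, overlapped, with 438.8 and 517.5 in APPSw mice and 362.3 and 998.5 in controls. Trpc4, a close relative, had 3570 and 3304 in APPSw mice against 3941 and 3621 in controls, also without overlap, a difference of -0.14 (SE 0.17, adjusted p = 0.829). Trpv2, a cation channel of the vanilloid subfamily, had 2244 and 1451 in APPSw mice and 1625 and 2032 in controls, a difference of -0.0099 (SE 0.27), with both extremes in APPSw mice.

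The 3 members kept apart from the families were Trpc4ap, Scnm1 and Scn7a. Trpc4ap had 16106 and 13201 in APPSw mice and 15990 and 15281 in controls, a log2 difference of -0.10 (SE 0.19, adjusted p = 0.894) with overlap. Scnm1 differed by 0.087 (SE 0.22) and by -0.020 after quantile normalization. Scn7a lay under the filter and was not tested, at 65.7 and 73.6 in APPSw mice and 49.9 and 271.5 in controls.

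The 19 probe sets under the filter ran from 17.8 to 1002 in signal, and 13 of them were under 565 on every array. They include all probe sets of 11 genes, among them Scn9a and Scn10a, sodium channels of peripheral sensory neurons, and Scn3a, a mainly embryonic one. A low signal here is a bound on what the array could measure and not a zero, and no fold change is given. The groups overlapped for 15 of the 19 and did not for 4, or 21.1%, where 36.5% of all 4969 probe sets under the filter had no overlap. Scn3a had 71.8 and 152.5 in APPSw mice against 33.5 and 17.8 in controls. Trpc5, a TRP channel of hippocampal neurons, had 377 and 495 in APPSw mice against 68.7 and 288 in controls. Cacna1h, a T-type calcium channel subunit, had 413 and 340.3 in APPSw mice against 193 and 313 in controls. In these 3 the APPSw arrays were above (background 25.8%), and in the dim Scn8a probe set they were below (background 10.7%). By each dim probe set of Clcn5, an endosomal exchanger, the groups overlapped. By 101913_at it had 609 and 133 in APPSw mice and 597 and 742 in controls. By 161451_r_at it had 651 and 490.2 in APPSw mice and 422 and 541 in controls. Trpm7, a channel with a kinase domain, had 300 and 619 in APPSw mice and 97.2 and 554 in controls, so the arrays of a group lay farther apart than the groups.

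**Figure D5:**
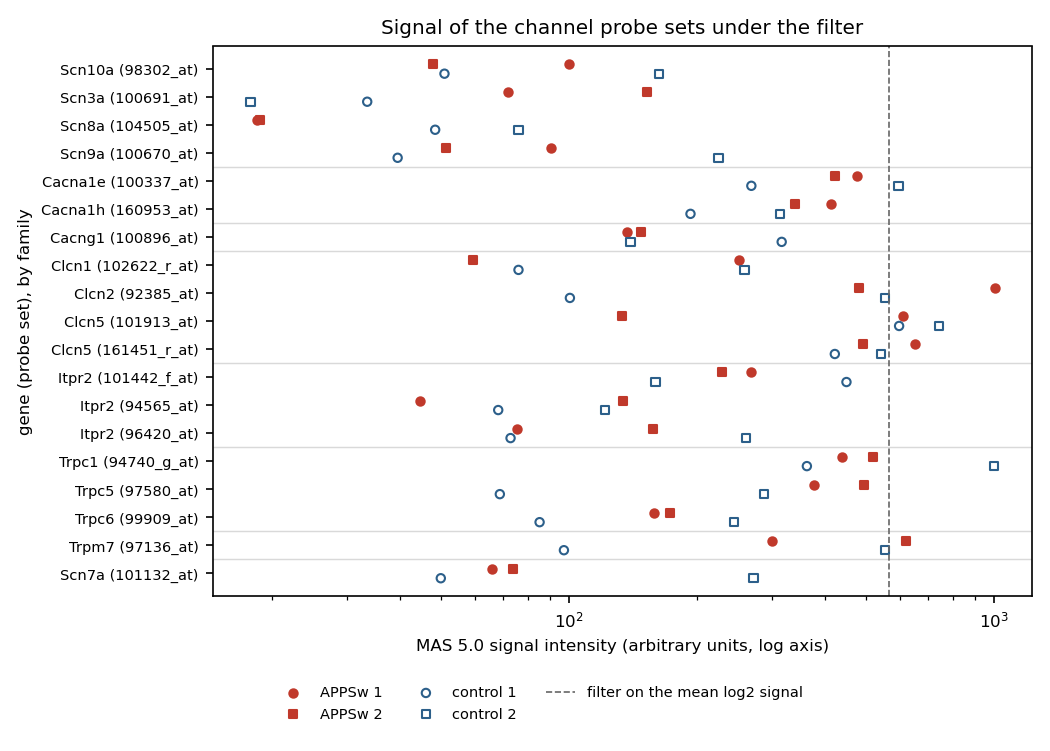
MAS 5.0 signal intensity on a log axis for the 19 channel probe sets whose mean log2 signal lay under the filter (dashed line at 565), filled for APPSw arrays and open for control arrays. The groups overlap for 15 of the 19 and do not for 4, or 21.1%, beside 36.5% of all probe sets under the filter.

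Genes that work with these channels were taken from 5 lists, chosen with earlier results of these data known. With limma, 0 genes of these lists passed the adjusted threshold in either direction, and 2 of 32 tested genes, or 6.25%, had an unadjusted p under 0.05, Fkbp1a and Slc12a5, where 8.05% of all tested probe sets did. Of the sodium channel partners, 6 of 13 were tested, 4 above 0 and 2 below. The brightest, Cntn1, a neural adhesion molecule that binds sodium channels, had a log2 difference of 0.24 (SE 0.19). The difference was -0.18 (SE 0.17) for Fgf11, an intracellular relative of fibroblast growth factors. For Calm2, a calmodulin gene also listed for calcium channels, it was 0.44 (SE 0.18, adjusted p = 0.612).

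Partners of the calcium and release channels had 8 of 15 tested genes above 0 and 7 below, with a median log2 difference of 0.00058, and 10 above and 5 below after quantile normalization. Fkbp1a, which encodes an immunophilin that steadies the closed ryanodine receptor, had 38476 and 39263 in APPSw mice against 58202 and 56934 in controls. Its arrays agreed closely within each group, and the difference was -0.57 (SE 0.17, unadjusted p = 0.0154, adjusted p = 0.599). Fkbp1b, a related gene of the list, had 8512 and 8853 in APPSw mice and 8636.5 and 9464 in controls. Its groups overlapped, with a difference of -0.059 (SE 0.17, adjusted p = 0.932). Any link of these values to the Ryr values above was not tested. Homer2, a scaffold that links glutamate receptors to release channels, differed by 0.66 (SE 0.28, adjusted p = 0.612) and by 0.28 without APPSw 1, and Snap25, a vesicle fusion protein and the brightest gene of the list, by -0.019 (SE 0.17). Of the 6 tested calcium pumps and exchangers, 4 lay above 0 and 2 below. Atp2a2, the endoplasmic reticulum calcium pump and the brightest of them, had 10520 and 10154 in APPSw mice against 13732 and 12419 in controls, a difference of -0.34 (SE 0.17, adjusted p = 0.620). The difference was 0.25 (SE 0.17) for Slc8a1, the plasma membrane sodium-calcium exchanger, and 0.18 (SE 0.17) for Atp2a1, the calcium pump of fast muscle.

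All 6 tested partners in chloride transport lay above 0, also after quantile normalization, with a median log2 difference of 0.21. Over all tested probe sets 52.7% lay above 0. Slc12a5, the potassium-chloride cotransporter that keeps neuronal chloride low, had 1832 and 1335 in APPSw mice against 918 and 681 in controls. Both APPSw arrays were higher than both controls, a difference of 0.98 (SE 0.25, unadjusted p = 0.0083, adjusted p = 0.599). Slc12a2, which loads chloride into cells and was the brightest of the list, had 10600 and 8029 in APPSw mice and 8141 and 7916 in controls, a difference of 0.20 (SE 0.20) with overlap that was 0.00012 without APPSw 1. Slc12a7, a related cotransporter, differed by 0.35 (SE 0.20) and by 0.15 without APPSw 1. Clns1a, a chaperone once described as a chloride channel regulator, differed by 0.20 (SE 0.19) and by 0.078 without APPSw 2. Neither of the 2 HCN partners on the array, Flna and Cnga1, was above the filter.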

How the data were processed

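RNA of 4 hippocampi was measured on Affymetrix arrays, 2 of APPSw mice and 2 of controls. The authors analysed the arrays with MAS 5.0 and scaled them to 2500, per the labels, and deposited linear signal intensity values, 1 for each probe set and array. Probe sets were named through the platform annotation. The 66 manufacturer's controls were left out, and no further normalization was applied. Depth has no meaning here, and the number of arrays limits the precision.

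Differences in log2 signal came from limma 3.58.1 (R 4.3.3, functions lmFit and eBayes, two-sided test), adjusted by Benjamini-Hochberg over the 7453 probe sets at or above the 40th percentile of mean log2 signal. The threshold was an adjusted p of 0.05. The fit had 2 residual and 3.70 prior degrees of freedom, which also set the 95% confidence intervals. A gene of a partner or marker list was represented by its tested probe set with the highest mean signal. Exact permutation was not used, since with 2 arrays a side its two-sided p is at least 0.333.

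The members and lists were chosen with earlier results of these data known. Values on each array are given for the brightest probe set and the one with the largest moderated statistic in each family, for members with an unadjusted p under 0.05, for genes whose probe sets disagreed in sign, and for others chosen after their values were seen. For partner lists the brightest gene, up to 3 with the largest statistic and Fkbp1b, set beside Fkbp1a, are named. On 20 simulated data sets of 7453 probe sets the fit recovered 88% of those changed 4-fold and 10.3% of those changed 2-fold. It also called a mean of 4.35 unchanged probe sets in each. The simulated spread came from the fit's own prior, with independent noise and no effect shared by an array's probe sets. The shares therefore do not say how often such changes would be found in these arrays. Alternatives were quantile normalization, other filters, a floor, a pseudocount, an intensity trend, the replicate number as a block, gene means, each array left out in turn and, added after seeing the data, members without suffixed probe sets. Promoter sequences are from RefSeq (GRCm38.p6).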

Additional observations from a re-analysis of the deposited data

How the results depend on the processing

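No channel probe set passed the adjusted threshold in any alternative, where the lowest adjusted p was 0.432. Of 36 tested probe sets, 19 kept the sign of their log2 difference in every alternative and 15 changed it only when an array was left out. Ryr2 (0.024) and Scnm1 (-0.020) changed it after quantile normalization as well. At the stricter filter the median was 0.045 for calcium channel alpha1 subunits and -0.18 for ryanodine receptors, against 0.13 and -0.25 as reported. The sodium channel alpha median was -0.22 with no filter, against -0.058. With a gene's probe sets averaged first the Clcn median was -0.23, against -0.066. When an array is dropped, the 1 left in its group borrows the spread of the other group, and fewer arrays by construction leave more probe sets without overlap. In those fits 0 to 4 of 36 channel probe sets had an unadjusted p under 0.05, and 23 to 31 had groups that did not overlap. Without APPSw 1 these were 8.33% and 72.2% of the channels beside 10.05% and 74.9% of all tested probe sets, and without APPSw 2 they were 11.1% and 86.1% beside 9.46% and 73.1%. Without control 1 they were 8.33% and 63.9% beside 5.70% and 68.4%, and without control 2 they were 0.0% and 66.7% beside 5.39% and 66.1%. Their median ran from -0.088 to 0.00036, that of sodium channel alpha subunits from -0.31 to 0.30, that of Clcn from -0.16 to 0.062 and that of Hcn from -0.16 to 0.18.

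The single log2 differences whose sign changed ran, with each array left out in turn, from -0.10 to 0.40 for Scn1a by 162255_s_at and from -0.42 to 0.30 by 94201_at. The range was -0.13 to 0.76 for Cacna1a, -0.18 to 0.086 for Cacna1b, -0.25 to 0.52 for Cacna1c, -0.52 to 0.19 for Cacna1g, -0.33 to 0.052 for Cacna2d3 and -0.61 to 0.050 for Cacng2. It was -0.97 to 0.20 for Clcn1, -0.21 to 0.072 for Clcn4 by 99672_at, -0.29 to 0.19 for Clcn7 by 104391_s_at and -0.25 to 0.29 for Hcn2 by 94195_r_at. It was -0.26 to 0.24 for Ryr2, -0.30 to 0.19 for Itpr2, -0.32 to 0.30 for Trpv2, -0.16 to 0.33 for Scnm1 and -0.24 to 0.043 for Trpc4ap. For the partner gene Snap25 it was -0.049 to 0.010, and the value was 0.057 after quantile normalization. Of the 36 channel probe sets, 31 changed sign or moved by over 1.5 times when some array was left out, and 14 of these kept their sign. Those 14 ran from 0.13 to 0.34 for Cacna1e, 0.065 to 0.19 for Cacna1s, 0.095 to 0.49 for Cacna2d1, 0.12 to 1.08 for Clcn7 by 104392_at and 0.056 to 0.24 for Hcn3. For Clcn3 they ran from 0.041 to 0.15 by 102786_at, 0.022 to 0.31 by 94464_at and -0.16 to -0.025 by 94465_g_at. They ran from -0.31 to -0.13 for Scn8a, -0.56 to -0.16 for Ryr1, -0.59 to -0.067 and -0.33 to -0.020 for Ryr3 by 101830_at and 97126_at, -0.59 to -0.076 for Trpc1 and -0.20 to -0.076 for Trpc4. Of 13 named partner genes, Fkbp1b not among them, 7 moved as much, including Homer2 (0.28 to 1.03), Cntn1 (0.10 to 0.38) and Atp2a1 (0.11 to 0.26). The cause was not tested.

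The arrays share replicate numbers, but the labels tie no pair together, and deviations of same-numbered arrays from their group means had r = -0.02 over 7453 probe sets. With the replicate number as a block, 0 channel probe sets passed the adjusted threshold and 4, or 11.1%, had an unadjusted p under 0.05, beside 7.50% of all tested probe sets, against 3 channel probe sets, or 8.33% beside 8.05%, without it.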
